A study of Mus musculus with 2 samples.

Results

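Cldn16 high panobinostat cells are 608 of the 2281 cells of a panobinostat-treated single-cell RNA-seq library, and of 5135 cells in all. They were chosen by the readout itself: a cell was a member when it held 3 or more UMIs (distinct counted molecules) of Cldn16, and the reference was the 1468 cells of the same library with 0. The remaining 205 cells held 1 or 2 Cldn16 UMIs and stood in neither group. The same rule found 113 members and 2501 reference cells among 2854 cells of the vehicle library. All cells came from the kidney cortex of healthy C57Bl/6 mice aged 9 weeks (2 are given for each library) that carried the transgenes Pax2.rtTA and TetO.Cre together with the reporter allele R26.mT/mG, in which a drug-inducible Cre under Pax2 control turns on a green fluorescent reporter in cells that use Pax2 and in their descendants. Cells that grew out of cultured glomeruli over 5 days were sorted for the reporter, starved for 16 hours, and then given either 0.2 µM panobinostat or its DMSO vehicle for 48 hours in medium with serum. Each treatment has 1 library and mice are not told apart within it, so there is no replicate, no p-value is given, and every interval is an exact 95% interval that covers counting error only. The labels call the cells Pax2+ renal progenitors.

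Cldn16 encodes claudin-16, a tight junction protein known from the thick ascending limb of the loop of Henle, where it acts with claudin-19 to let magnesium and calcium pass between cells; loss of either protein in people causes urinary magnesium wasting. Claudin-1, encoded by the next coding gene on the chromosome, seals epithelia and marks the parietal cells of Bowman's capsule, the glomerular layer that is thought to hold renal progenitors. Panobinostat inhibits histone deacetylases, enzymes that remove acetyl groups from histones, and changes the transcription of many genes in a cell.

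The region before the transcription start is shown for Cldn16 and for the claudin genes that were higher in its high cells, to set their start regions side by side. Each runs from 250 bases before the start site to 20 bases after it and was read from RefSeq, build GRCm38.p6, 5′ to 3′ on the gene's own strand. Capitals mark matches to 1 of 5 short motifs searched on both strands.
Cldn16, chr16:26462885-26463154, plus strand: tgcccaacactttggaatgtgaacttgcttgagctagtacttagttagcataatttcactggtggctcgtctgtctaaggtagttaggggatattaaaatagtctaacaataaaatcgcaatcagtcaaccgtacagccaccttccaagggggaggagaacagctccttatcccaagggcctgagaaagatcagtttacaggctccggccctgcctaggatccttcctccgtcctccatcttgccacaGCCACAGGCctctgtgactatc
Cldn1, chr16:26371820-26372089, minus strand: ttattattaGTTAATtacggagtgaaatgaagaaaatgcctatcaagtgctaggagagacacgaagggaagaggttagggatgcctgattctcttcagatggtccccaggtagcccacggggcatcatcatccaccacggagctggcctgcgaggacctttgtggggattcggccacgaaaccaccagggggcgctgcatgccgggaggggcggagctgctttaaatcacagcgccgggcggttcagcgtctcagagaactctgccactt
Cldn19, chr4:119255191-119255460, plus strand: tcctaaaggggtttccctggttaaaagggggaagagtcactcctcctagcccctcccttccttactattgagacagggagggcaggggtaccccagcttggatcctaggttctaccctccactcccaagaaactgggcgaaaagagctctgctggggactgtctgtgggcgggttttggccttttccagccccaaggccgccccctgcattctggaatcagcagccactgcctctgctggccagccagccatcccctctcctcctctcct
The motif of the core promoter box was TATAAA. That of AP-1 was TGANTCA, that of Tfap2 GCCNNNGGC, that of an Hnf1 half-site GTTAAT and that of Gata factors AGATAA. The Cldn16 window held 1 Tfap2 motif, beginning at position -2 relative to the start site, and the Cldn1 window held 1 Hnf1 half-site at position -241. Cldn19 had no match to the 5 motifs in its window. Of 27025 mouse promoter windows of the same length, 14.65% held the Tfap2 motif, 6.794% the Hnf1 half-site, 10.79% the Gata motif, 7.345% the AP-1 motif and 13.44% the core promoter box. A match here is a description of letters and not a binding site.

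Cldn16 transcripts were held by a minority of cells in each library, and by a larger share after panobinostat. Members made up 26.7% of the panobinostat library (95% interval 24.8 to 28.5%) and 3.96% of the vehicle library (3.27 to 4.74%). Summed over each library, Cldn16 had 5830 UMIs with panobinostat, or 56.0 CPM (a gene's UMIs for every 1000000 UMIs of the summed cells), and 869 UMIs or 9.58 CPM with vehicle. In the panobinostat library 95.1% of these UMIs lay in the members, against 62.5% in the vehicle library. A panobinostat member held a median of 7 Cldn16 UMIs (quartiles 5 and 12, highest 41), and a vehicle member 4 (quartiles 3 and 6, highest 22).

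The count of members moved with depth. Members had a median of 46520 UMIs per cell and the reference cells 40477; in the vehicle library the medians were 38250 and 27358. Each cell was therefore also thinned to 18663 UMIs, which left out 60 panobinostat and 453 vehicle cells below that number. After thinning, 351 of 2221 panobinostat cells (15.8%, 14.3 to 17.4%) and 44 of 2401 vehicle cells (1.83%, 1.33 to 2.45%) kept 3 or more Cldn16 UMIs. The share was higher with panobinostat before and after thinning at each of the thresholds computed, which were 1, 2, 3, 5 and 10 UMIs. Had Cldn16 UMIs been spread over the panobinostat cells in proportion to their totals, 11.3% of cells would hold none; 64.4% held none. For vehicle the corresponding values were 74.5% and 87.6%. No cell type known to lack Cldn16 was identified in these libraries, so free RNA could not be measured and a share of cells with a UMI is not a share of cells that express the gene.

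**Figure D1:**
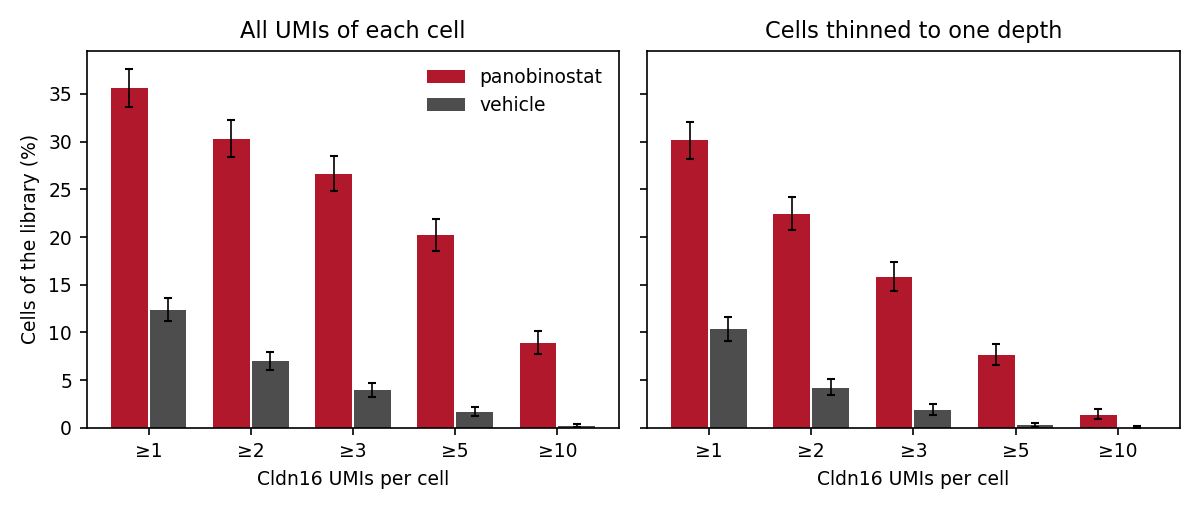
Share of cells (y axis, percent of the library) holding at least 1, 2, 3, 5 or 10 Cldn16 UMIs (x axis), for panobinostat (red) and vehicle (grey), with all UMIs on the left and cells thinned to 18663 UMIs on the right; bars are exact 95% binomial intervals. At 3 or more UMIs the shares were 26.7% and 3.96% with all UMIs, and 15.8% and 1.83% after thinning.

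The threshold cuts a range and not a gap. In the panobinostat library 83 cells held exactly 2 Cldn16 UMIs and 78 cells exactly 3. Cldn1 stood at 75 CPM in the cells with 2 and 80.9 CPM in those with 3, Ldhb at 760 and 920 CPM, and Gata3 at 8.05 and 4.62 CPM. Mitochondrial UMIs were a median of 7.05% of a member and 6.92% of a reference cell, and 1 member and 3 reference cells scored as S or G2/M phase. The doublet caller marked 5 of all 5135 cells, too few to be taken as having worked, and doublets were not removed. No barcode occurred in both libraries. The reporter EGFP stood at 7078 CPM in members and 7984 CPM in reference cells, and an EGFP UMI was seen in 591 of 608 members and 1458 of 1468 reference cells. With vehicle, EGFP was at 5449 CPM in members and 7858 CPM in reference cells (log2 ratio -0.53, and -0.70 after thinning). The lower quartile of single vehicle cells was 124 CPM in members and 5866 CPM in reference cells, and the medians were 5150 and 8225 CPM. A part of the vehicle members thus held little reporter RNA, and the cause was not tested.

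Of the 3 genes given as markers of these cells, Cldn16 was the choice itself, Lpl was higher and Timp3 stood under the fold used here. Lpl, lipoprotein lipase, was at 29.5 CPM in members and 11.1 CPM in reference cells, a log2 ratio of 1.41 (1.27 to 1.56). Timp3, an inhibitor of matrix metalloproteases, was at 631 and 465 CPM, a log2 ratio of 0.44 (0.41 to 0.47). Over the bins of Cldn16, Timp3 was lowest in cells with 3 to 5 UMIs, at 425 CPM, and highest in those with 12 or more, at 739 CPM.

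Across all genes, a gene was called when it differed by 1.5-fold or more, its interval did not include equality, and it reached 10 CPM in members or reference cells. Of 8290 genes that reached this floor, 182 (2.2%) were called higher in the members and 142 (1.71%) lower, with Cldn16 left out; the median log2 ratio was -0.01. These counts describe the contrast the members were chosen in and test nothing. The counts of called genes in the lists below are to be read beside these shares of all genes.

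Of the thick ascending limb genes described here, Cldn19 was higher in the members of both libraries. Cldn19, the partner of claudin-16, stood at 12.2 CPM in members and 3.64 CPM in reference cells with panobinostat, and at 38.5 and 11.9 CPM with vehicle. The log2 ratios were 1.74 (1.5 to 1.98) and 1.69 (1.45 to 1.92), while the level of Cldn19 was lower with panobinostat in both kinds of cell.

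Other genes that define the segment were close to absent. Slc12a1, the sodium, potassium and chloride cotransporter, had 60 UMIs over all members (2.00 CPM) and 28 over the reference cells (0.432 CPM). Umod, uromodulin, had 3 UMIs in members and 0 in reference cells, and Kcnj1, the potassium channel of the segment, had 1 and 4. Irx1, Irx2 and Pou3f3, transcription factors of the developing middle nephron, were at 13.5, 26.5 and 21.0 CPM in members and were not called. With these levels the members are named by the gene that chose them and not as thick ascending limb cells.

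Among the claudins, 2 of the 8 that reached the floor were called higher and none lower. Cldn1 stood at 107 CPM in members and 49.1 CPM in reference cells, log2 ratio 1.13 (1.06 to 1.2), and at 145 and 85.9 CPM with vehicle, log2 ratio 0.76 (0.64 to 0.87). Thinned to 18663 UMIs, the Cldn1 ratio was 1.21 with panobinostat and 0.41 with vehicle, where it was no longer called and where 70.5% of 44 members and 66.8% of 2153 reference cells held a Cldn1 UMI. The other claudins past the floor, among them Cldn3, Cldn4, Cldn6, Cldn7 and Cldn12, lay between log2 ratios of -0.37 and 0.24. Cldn10, which forms the sodium pore of the thick ascending limb, was at 3.69 and 4.8 CPM, and Cldn2, the claudin of the proximal tubule, had 0 UMIs in members and 12 in reference cells. The 14 scaffold and membrane genes of tight junctions that reached the floor had 0 calls and a median log2 ratio of 0.05.

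The genes with the largest ratios among those at 50 CPM or more were Il5ra, Sytl2, Lcn2, Fgfbp1, Ldhb, Havcr1, Ifit3, Fst, Itga1, Ccl20, Anxa1, Cldn1, Cd34, Mme, Trnt1 and Adamts5. Il5ra, the interleukin-5 receptor alpha chain, was at 54.7 CPM in members and 12.5 CPM in reference cells, log2 ratio 2.14 (2.01 to 2.26), and at 90.9 and 43.0 CPM with vehicle. It lies beside Trnt1, a tRNA-completing enzyme (log2 ratio 1.04), on chromosome 6, and no source used here states whether counting used the strand. Sytl2, a Rab27 effector in vesicle traffic, was at 94.1 and 32.1 CPM, log2 ratio 1.55. Ldhb, the lactate dehydrogenase subunit of oxidative tissues, was at 1085 and 435 CPM, log2 ratio 1.32 (1.29 to 1.34), whereas its partner Ldha was at 264 and 242 CPM, log2 ratio 0.12. After thinning to one depth, a Ldhb UMI was seen in 100% of 351 members and 96.3% of 1552 reference cells.

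Several of these genes encode surface or secreted proteins. Fgfbp1, which releases fibroblast growth factors from matrix, was at 67.8 and 25.1 CPM (log2 ratio 1.43), and at 60.4 and 12.5 CPM with vehicle (2.27). Itga1, the collagen-binding integrin alpha 1 chain, was at 119 and 51.4 CPM (1.22), and Anxa1, an anti-inflammatory annexin, at 706 and 310 CPM (1.19). Mme, the membrane peptidase neprilysin, was at 126 and 60.9 CPM (1.04). Fst, the activin antagonist follistatin, was at 458 and 193 CPM (2.37-fold), but at 1281 and 1075 CPM with vehicle, where it was not called. The median single vehicle cell was nevertheless at 1017 CPM of Fst among members and 264 CPM among reference cells. Without thinning, 95.6 and 71.2% of these vehicle cells held an Fst UMI. Cd34 was also called with panobinostat (60.1 and 28.1 CPM, 1.10) and not with vehicle (22.2 and 20.5 CPM), although in thinned vehicle cells its log2 ratio was 0.70 and it was called.

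**Figure D2:**
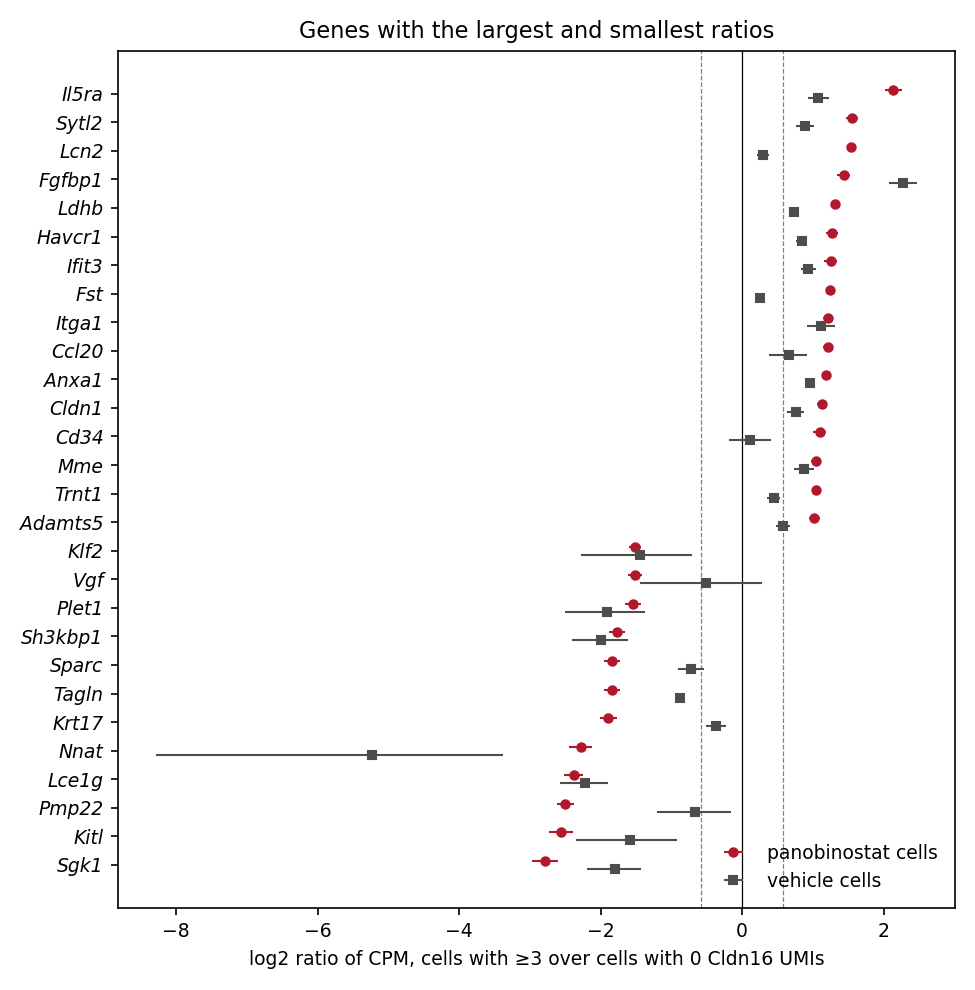
Log2 ratio of CPM in cells with 3 or more over cells with 0 Cldn16 UMIs (x axis) for 16 genes at the top and 12 at the bottom of the panobinostat ratios (y axis); red circles are panobinostat and grey squares vehicle cells, lines are 95% counting intervals and dashed lines mark 1.5-fold. Il5ra is the highest panobinostat value, at 2.14, and Sgk1 the lowest, at -2.78.

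Genes of kidney injury were split. Of 12 genes on that list, all past the floor, 5 were called higher (Lcn2, Havcr1, Il34, Timp2 and Cd44) and 1 lower (Clu), with a median log2 ratio of 0.33. Lcn2, the iron-carrier scavenging protein known as NGAL, was at 429 CPM in members and 148 CPM in reference cells (log2 ratio 1.53, 1.49 to 1.57), against 246 and 200 CPM with vehicle (0.29). After thinning the summed Lcn2 ratio was 1.84 with panobinostat and -0.47 with vehicle, where it was not called. In those thinned vehicle cells a Lcn2 UMI was nevertheless seen in more members (59.1% of 44) than reference cells (36.4% of 2153). Havcr1, the proximal tubule injury protein KIM-1, was at 80.4 and 33.3 CPM (1.27), and at 317 and 176 CPM with vehicle (0.85). Clu, the secreted chaperone clusterin, was at 3264 and 8341 CPM (-1.35) and, with vehicle, at 957 and 2404 CPM (-1.33). Timp2 (0.62) lost its call in 5 of 15 other settings, with log2 ratios from 0.33 to 0.75 over the 15.

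Other segment lists had few genes past the floor. Of the proximal tubule genes 2 of 4 were called higher, Havcr1 and Ggt1, the brush border gamma-glutamyltransferase (49.6 and 14 CPM, log2 ratio 1.82); Lrp2, the endocytic receptor megalin, was at 9.95 and 12.6 CPM, Aqp1, the water channel, had 1 UMI in members and 197 in reference cells, and Hnf4a had 0 and 2. Of 3 collecting duct genes, Tfap2b was higher, and Gata3 and Aqp3 were lower. Gata3, a transcription factor of the collecting duct lineage, was at 3.56 CPM in members and 32.3 CPM in reference cells (-3.18, -3.47 to -2.90), and at 1.74 and 16.6 CPM with vehicle (-3.26). Aqp3, a water channel of collecting duct cells, had 22 UMIs in members and 686 in reference cells (-3.85), and Aqp2, Avpr2, Atp6v1g3 and Foxi1 had 0 UMIs in members. The summed level of the 13 collecting duct genes measured was 35.0 CPM in members and 72.6 CPM in reference cells.

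Most nephron transcription factors past the floor were not called, but 2 were higher and 1 lower, where 2.2% of all genes were higher and 1.71% lower. Of 13 past the floor, Sim2 (13.7 and 5.51 CPM, log2 ratio 1.31) and Tfap2b, a factor of the distal nephron (18.1 and 8.05 CPM, 1.17), were called higher and Tfap2a lower (4.06 and 11.6 CPM, -1.51). With vehicle, Sim2 was at 19.4 and 7.64 CPM (1.34, but 0.17 and not called after thinning), Tfap2b at 28.0 and 19.5 CPM (0.52, and 1.10 and called after thinning) and Tfap2a at 7.83 and 9.97 CPM (-0.35). Pax2, the gene whose control region marked the lineage, was at 20.1 and 27.6 CPM (-0.45), and Pax8, its close relative, at 136 and 113 CPM (0.27); neither was called.

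On the list of parietal epithelium and progenitor markers, 4 of 15 genes were higher and 1 lower, with a median of 0.27. Besides Cldn1, the higher genes were Scin, an actin-severing protein (207 and 113 CPM, 0.87), Prom1, the stem cell antigen CD133 (94.9 and 58.2 CPM, 0.70), and Cd44, the hyaluronan receptor (244 and 162 CPM, 0.60). Cd24a, the other antigen used with CD133 to isolate human renal progenitors, was lower, at 353 and 715 CPM (-1.02). Prom1 and Cd24a thus stood on opposite sides in members, and with vehicle too (log2 ratios 0.76 and -0.61). Of 12 podocyte genes past the floor, Nes and Vegfa were higher and Cdkn1c lower; Nphs1, the slit diaphragm gene nephrin, had 15 UMIs in members and 16 in reference cells, and Wt1 had 10 and 41.

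The genes with the smallest ratios were Sgk1, Kitl, Pmp22, Lce1g, Nnat, Krt17, Tagln, Sparc, Sh3kbp1, Plet1, Vgf and Klf2. Sgk1, a corticosteroid-induced kinase that activates sodium transport, was at 8.85 CPM in members and 61.0 CPM in reference cells (log2 ratio -2.78, -2.97 to -2.60), and at 13.0 and 45.4 CPM with vehicle (-1.80). Kitl, the ligand of the Kit receptor, was at 10.1 and 59.0 CPM (-2.55), and at 3.91 and 11.8 CPM with vehicle (-1.59). Pmp22, a membrane protein known from myelin, was at 21.6 and 122 CPM (-2.50), and Klf2, a shear-responsive transcription factor, at 45.5 and 129 CPM (-1.51). Krt17 (-1.89) and Tagln (-1.84), a keratin and an actin-binding protein, were -0.89 and -1.24 among the cells with the lowest totals, -1.02 and -0.80 among those with middle totals and -2.81 and -2.19 among those with the highest. Sprr2f, a cornified envelope gene under the 50 CPM limit and chosen after its values were seen, was at 1.198 and 24.5 CPM (-4.35), and at 1.96 and 18.0 CPM with vehicle (-3.20). Lce1g belongs to a family of near-identical cornified envelope genes and its counts are uncertain.

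Matrix genes moved in both directions. Of 14 past the floor 3 were higher and 3 lower, median 0.17. Col4a1 and Col4a2, the chains of the common basement membrane collagen, were at 66.1 and 184 CPM (-1.47) and at 50.1 and 118 CPM (-1.23), and were lower with vehicle too (-1.15 and -1.09). The third lower gene, Sparc, a collagen-binding matricellular protein, was at 23.9 and 85.4 CPM (-1.83). Col5a2, a chain of fibril-forming collagen V, was higher, at 44.1 and 10.0 CPM (2.14, 2.00 to 2.28), and at 72.0 and 30.8 CPM with vehicle (1.22). Fn1, fibronectin, was higher with panobinostat (900 and 581 CPM, 0.63) and stood at 872 and 1168 CPM with vehicle (-0.42). Tnc, tenascin C, was the third higher gene (19.4 and 9.97 CPM, 0.96). Among inhibitors and proteases of the matrix 3 of 14 were higher, Adamts5 (74.5 and 36.6 CPM, 1.02), Adamts1 (219 and 118 CPM, 0.90) and Timp2, and none was lower.

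Inflammatory genes were higher where they were called. Of 10 NF-kB targets and cytokines past the floor 4 were higher, none lower, and the median was 0.45; of all genes 2.2% were higher. With vehicle 2 of 12 were higher and none lower, with a median of 0.22, and Csf1 (0.56) and Tnfaip3 (0.08) were not called. Ccl20, a chemokine for lymphocytes and dendritic cells, was at 102 and 44.2 CPM (1.21), Csf1, the macrophage growth factor, at 300.1 and 180 CPM (0.74), and Tnfaip3, a brake on NF-kB, at 26.0 and 16.7 CPM (0.64). The fourth was the neutrophil chemokine Cxcl2 (24.7 and 16.5 CPM, 0.59). The log2 ratio of Ccl20 was 0.15 in the cells with the lowest totals and 1.43 in those with the highest. Before thinning, a Ccl20 UMI was seen in 29.1% of members and 13.1% of reference cells. Csf1 and Tnfaip3 were not called among the cells with the highest totals. Of 9 interferon response genes past the floor, Ifit3 (66.6 and 28.0 CPM, 2.38-fold) and Ifit2 (11.9 and 6.67 CPM, 0.83) were higher; Ifit3 has a near-identical copy, and Ifit2 was at 0.19 in the cells with the lowest totals. Cxcl10, the interferon-induced chemokine, was at 110.4 and 115 CPM and not called.

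Genes of immediate early response, metallothioneins and neuronal genes were lower where they were called, apart from 2 genes of the oxidative stress list. Of 16 immediate early genes 3 were lower (Klf2, Klf4 and Fosb) and none higher, median -0.25. Mt1 and Mt2, metal-binding metallothioneins, were at 328 and 719 CPM (-1.13) and at 74.8 and 137 CPM (-0.87), and Hmox1, heme oxygenase, at 304 and 531 CPM (-0.81). With vehicle the same 3 genes were at -0.04, -0.15 and -0.25. Slc7a11, the cystine importer, was higher at 29.2 and 14.1 CPM (1.05), as was Gstm1 (0.77), a transferase with close paralogs. Of 16 neuronal and neuroendocrine genes 3 were lower (Meg3, Chga and Pcsk1n), median -0.26; Meg3, an imprinted noncoding RNA, was at 91.8 and 170 CPM (-0.89), with 0 UMIs in vehicle members and 29 in vehicle reference cells. Stmn2, a neuronal microtubule regulator, was at 591 and 538 CPM (0.13).

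Several lists held few calls or none. The 20 S phase genes past the floor, 8 histone deacetylases, 13 Yap targets, 6 Notch, 9 Wnt and 12 unfolded protein or stress genes each gave 0 calls. Over all 8290 genes 2.2% were called higher and 1.71% lower, so 0 calls in lists this short is near the share of all genes. Of 20 G2/M genes past the floor 1 was called higher, Ube2c (17.8 and 10.2 CPM, 0.80), which was at 0.06 and not called with vehicle. Of 12 magnesium and calcium handling genes past the floor only Fxyd2, the gamma subunit of the sodium pump, was called (37.8 and 19.6 CPM, 0.95); Trpm6, the magnesium channel, was at 5.86 and 3.53 CPM. Of 19 lipid handling genes, Lpl was higher and Pdk4, which restrains pyruvate oxidation, lower (-1.30). Of 3 mesangial and mural genes past the floor, Acta2 (8.06 and 15.0 CPM, -0.90) and Tagln were lower in summed counts. The ratio of Acta2 was -0.02 among cells with middle totals. The shares of cells with a UMI were close. Without thinning, Acta2 was seen in 8.88% of members and 9.33% of reference cells, and Tagln in 13.2 and 12.6%. Of endothelial and immune genes 1 each reached the floor, Flt1 and Cd68, and neither was called; Tie1 and Emcn, and Itgam, had 0 UMIs in members. The summed levels in members and reference cells were 69.5 and 138 CPM for the 11 mesangial genes measured, 24.4 and 29.5 CPM for the 10 endothelial genes and 55.7 and 75.04 CPM for the 5 immune genes. The part of other cell types in the ratios was not tested.

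The genes with the extreme ratios were then read over bins of Cldn16; since they were chosen on the same cells and the same gene, their order is a description. Over cells with 0, 1 or 2, 3 to 5, 6 to 11, and 12 or more Cldn16 UMIs, 14 of the 16 highest-ratio genes were higher in each bin than in the one before, and 8 of the 12 lowest-ratio genes were lower in each. Of all 8290 genes past the floor, 4.86% were higher in each bin and 4.57% lower in each. The cells with 1 or 2 UMIs, which belong to neither group, lay between the reference and the cells with 3 to 5 for 15 of the 16 and 12 of the 12 genes. Cldn1 went from 49.1 to 73.5, 86.9, 109 and 128 CPM, and Ldhb from 435 to 810, 991, 1069 and 1214 CPM. Havcr1 stayed near its reference level at 1 or 2 UMIs (33.3 and 34.8 CPM) and reached 128 CPM in the highest bin. Gata3 was lower already at 1 or 2 UMIs, with 32.3, 11.9, 3.95, 3.99 and 2.50 CPM over the bins, and Col4a1 was at 184, 66.4, 56.2, 73.4 and 66.4 CPM. Lpl showed no order above the reference, at 11.1, 28.2, 26.7, 33.6 and 26.6 CPM. Median depth also differed over these bins, from 40477 UMIs at 0 and 40973 at 3 to 5 up to 51447 at 12 or more, and its part in the ordering was not tested.

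**Figure D3:**
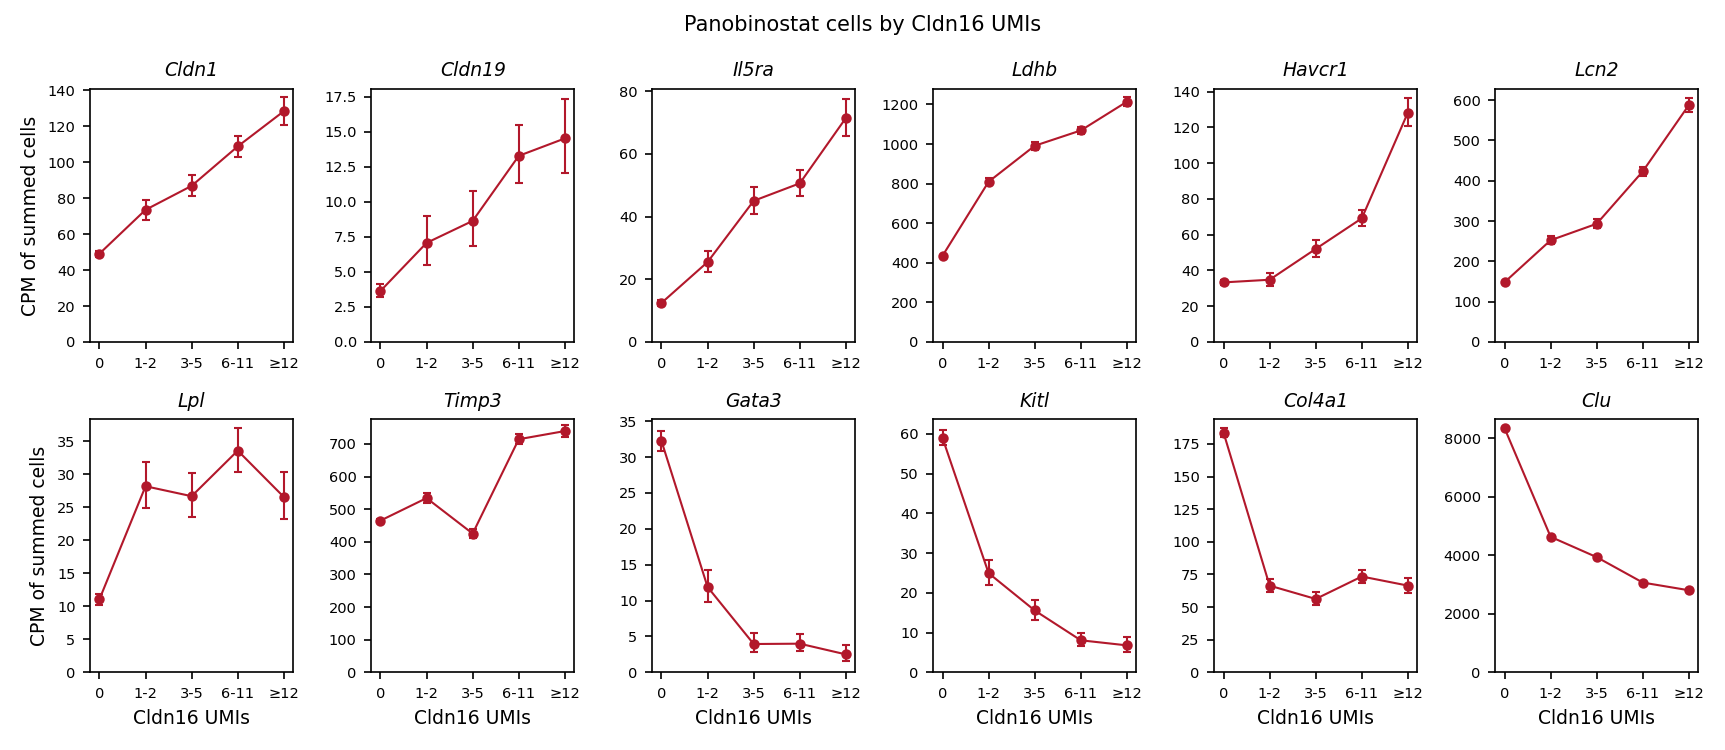
CPM of summed panobinostat cells (y axes, linear from 0) in bins of Cldn16 UMIs per cell (x axes) for 12 genes, with exact 95% counting intervals as bars. Cldn1 goes from 49.1 to 128 CPM and Clu from 8341 to 2803 CPM across the bins, whereas Timp3 and Lpl show no steady order.

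The profile was then read at matched depth. With cells thinned to 18663 UMIs and both groups chosen again, 228 of 8344 genes (2.73%) were called higher and 205 (2.46%) lower, and 164 of the 182 and 126 of the 142 genes called before were called again. Within terciles of cell totals, members made up 18.6%, 29.0% and 32.4% of cells from the lowest to the highest. The log2 ratio of Cldn1 was 1.11, 1.22 and 1.03 in those terciles, that of Cldn19 1.65, 1.96 and 1.67, and that of Gata3 -3.20, -3.62 and -2.96. In the lowest tercile the ratio of Kitl was -3.36, that of Lce1g -4.23, that of Nnat -3.05 and that of Vgf -2.30, each over 1.5-fold from its value over all cells, and that of Sgk1 in the middle tercile was -3.37. Thinned to one depth, a Cldn1 UMI was seen in 84.3% of members and 48.3% of reference cells, a Gata3 UMI in 5.70 and 29.6%, and a Kitl UMI in 9.97 and 33.4%. Without thinning the Kitl shares were 21.1 and 46.1%, and those of Gata3 12.2 and 42.3%.

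The vehicle cells gave a contrast that did not enter the choice of panobinostat cells. Of 8334 genes past the floor with vehicle, 133 (1.6%) were called higher in its 113 members and 155 (1.86%) lower. Among the 7533 genes past the floor in both libraries, 159 were higher with panobinostat (2.11%) and 101 with vehicle (1.34%), and 58 were shared, which is 36.5% of the first list and 57.4% of the second. Lower calls numbered 88 (1.17%) and 128 (1.7%), with 49 shared, or 55.7% and 38.3%. Of the 159 genes higher with panobinostat, 148 (93.1%) had a positive log2 ratio with vehicle, and of the 88 lower genes 83 (94.3%) a negative one; over all 7533 genes the vehicle ratio was positive for 50.9% and negative for 49.1%. Vehicle calls held less well when cells were thinned and chosen again, which left 44 vehicle cells as members. Of the 133 higher and 155 lower vehicle genes, 84 and 95 were then called again, as were 42 of the 58 and 38 of the 49 shared genes. With cells thinned but groups kept as first chosen, 108 of the 133 and 123 of the 155 were called again. Against the vehicle ratios of cells thinned and chosen again, 81.1% of the 159 genes were positive and 88.6% of the 88 negative, and 52.3% and 47.7% of all 7533 genes. In unthinned cells the median vehicle ratio of the 159 and the 88 genes was 0.44 and -0.70, against 0.77 and -0.82 with panobinostat. The libraries share no barcodes, and the labels give both the same source. The reporter EGFP was lower in vehicle members than in vehicle reference cells (-0.53, not called, and -0.70 and called after thinning).

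Shared calls covered several of the groups above. Il5ra, Cldn1, Cldn19, Col5a2, Ggt1, Sim2, Ldhb, Havcr1, Ifit3, Ccl20, Anxa1, Mme, Itga1, Sytl2, Fgfbp1 and Prom1 were called higher in both libraries, and Gata3, Gata2, Sgk1, Kitl, Clu, Col4a1, Col4a2, Sparc, Tagln, Acta2, Cd24a and Cdkn1c lower in both. Of these, Cldn1 (0.41) and Sim2 (0.17) were not called in thinned vehicle cells and the others were. The thinned vehicle ratio was over 1.5-fold from the unthinned one for Ccl20 (1.40), Gata3 (-2.24), Gata2 (-3.44), Sgk1 (-2.93), Kitl (-2.31), Sparc (-1.40), Tagln (-2.92), Acta2 (-3.22) and Cdkn1c (-2.66). Without thinning, a Tagln UMI was seen in 61.9% of vehicle members and 61.2% of vehicle reference cells, and an Acta2 UMI in 62.8 and 65.5%. After thinning these shares were 36.4 and 54.1% for Tagln, and 47.7 and 54.3% for Acta2. Pth1r, the parathyroid hormone receptor, and Wnt10a, a secreted Wnt ligand, were chosen after their values were seen. Pth1r was at 14.8 and 2.82 CPM with panobinostat (2.39) and at 21.7 and 4.68 CPM with vehicle (2.22), and Wnt10a at 30.2 and 9.15 CPM (1.72) and at 55.0 and 13.7 CPM (2.01). Ptges and Ptgs1, enzymes of prostaglandin synthesis chosen in the same way, were lower in both libraries (log2 ratios -1.90 and -1.59 with panobinostat, -1.35 and -1.80 with vehicle); in thinned vehicle cells Ptges was at -0.98 and not called. The cycling state of the libraries differed: 64.3% of vehicle cells and 0.175% of panobinostat cells scored as S or G2/M, and among vehicle cells the shares were 63.7% of members and 64.1% of reference cells.

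**Figure D4:**
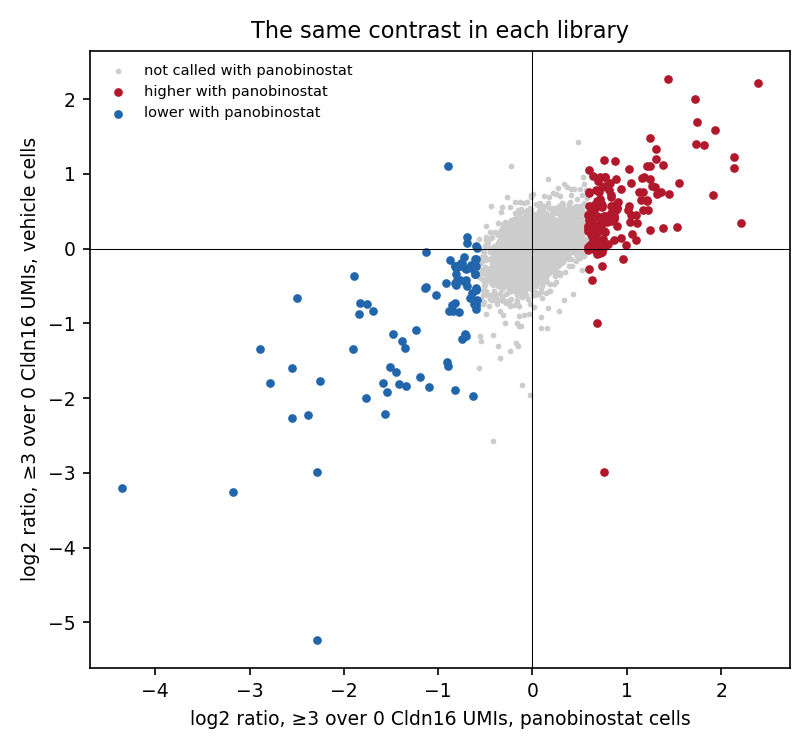
Log2 ratio of cells with 3 or more over cells with 0 Cldn16 UMIs in panobinostat (x axis) and vehicle (y axis) for 7533 genes past the floor in both; red and blue mark genes called higher or lower with panobinostat. Of 159 red points 148 lie above 0 on the vehicle axis, and of 88 blue points 83 lie below it.

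Genes called in vehicle cells were read in single panobinostat cells. Their calls used vehicle counts only, but they also had to reach 10 CPM in panobinostat members or reference cells. The panobinostat Cldn16 counts therefore had a part in which genes were kept. The mean log2(CPM + 10) of the 101 genes higher with vehicle had a median of 4.44 in panobinostat cells with 0 Cldn16 UMIs, 4.75 at 1 or 2, and 4.88, 5.01 and 5.15 at 3 to 5, 6 to 11, and 12 or more. Of the 608 members 98.0% lay above the median reference cell, and 97.5% of the 605 that could be thinned did so at equal depth. For the 128 genes lower with vehicle the medians were 5.33, 5.06, 5.03, 5.05 and 5.03. Here 90.8% of members lay below the median reference cell, 93.1% after thinning, and the bins above 0 were alike. These shares describe cells of 1 library, which are not replicates.

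**Figure D5:**
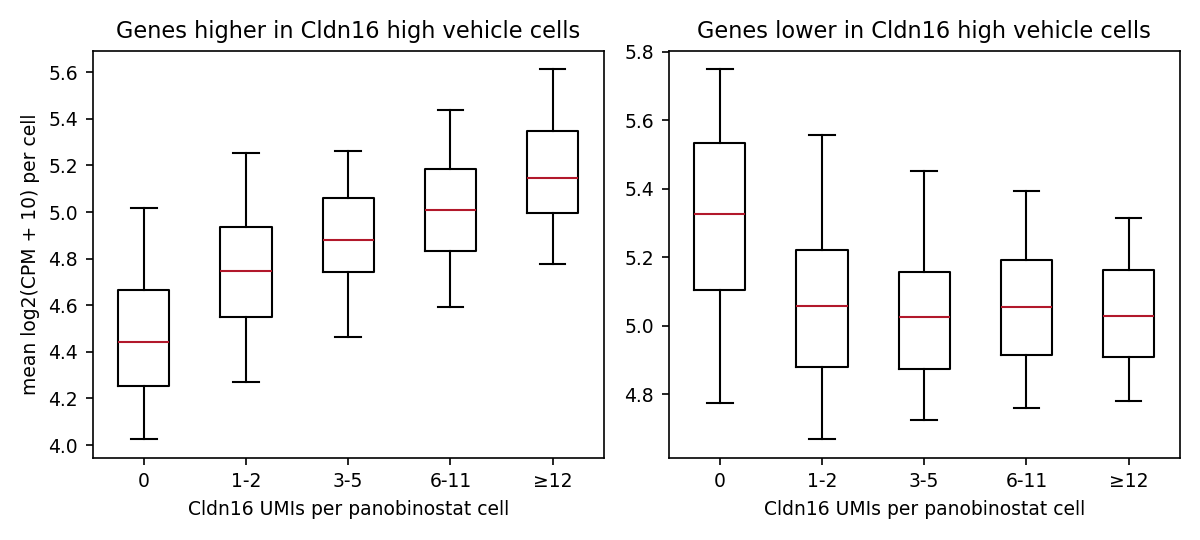
Mean log2(CPM + 10) per panobinostat cell (y axes) over 101 genes higher (left) and 128 genes lower (right) in Cldn16 high vehicle cells, by bins of Cldn16 UMIs (x axes); boxes are quartiles with the median in red and whiskers the 5th and 95th percentiles. The left medians go from 4.44 to 5.15 across the bins, and the right medians from 5.33 at 0 to 5.06 at 1 or 2 UMIs with little change after that.

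Few members also held many UMIs of Gata3 or Kitl. At 3 or more UMIs without thinning, Gata3 was held by 7 of 608 members (1.15%, 0.464 to 2.36%) and 21.3% of reference cells, and Kitl by 24 members (3.95%, 2.55 to 5.82%) and 25.3%. Sparc at that level was held by 13.3% of members and 27.7% of reference cells, and Col4a1 by 43.4 and 52.2%, although members were the deeper cells. Meg3 was held by 42.4 and 58.2%, the neuropeptide gene Gal by 8.55 and 15.9%, and Cxcl10 by 34.0 and 25%. The shares were closer for Pltp (2.14 and 2.52%) and Dcxr (60.2 and 63.5%).

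Around the gene, Cldn16 lies at chr16:26463135-26482765 on the plus strand and Cldn1 at chr16:26356642-26371841 on the minus strand in GENCODE M21 on GRCm38, so their start sites face away from each other. Of 10 genes measured within 1 Mb, a count that includes Cldn16, 3 besides Cldn16 reached the floor, and Cldn1 was called. Il1rap, an interleukin-1 receptor chain on the other side of Cldn16, was at 16.6 and 16.4 CPM (0.02), and Ccdc50 at 59.2 and 53.8 CPM (0.14). Tmem207, the nearest coding gene downstream, had 13 UMIs in members and 5 in reference cells. Uts2b, the gene of a urotensin peptide and chosen after its values were seen, was under the floor with 28 UMIs in members and 553 in reference cells (-3.19), and at 4.35 and 25 CPM with vehicle (-2.52).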

How the data were processed

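The data are 1 library of single cells for each treatment, from sorted mouse kidney cells, made with the 10x Chromium 3′ protocol per the labels. The submitters' processing notes name Cell Ranger 3.0.1 and mm10. No source used here states the annotation or whether counting used the strand. The values are raw UMI counts as deposited, over 19394 genes and 5135 cells, with each cell's library read from its barcode suffix. No deposited cell had fewer than 1798 genes or more than 9.98% mitochondrial UMIs, so the deposited cells look filtered, by a rule not given here.

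Counts were summed over cells and scaled to 1000000 (30041641 UMIs in members and 64814933 in reference cells). Log2 ratios carry exact conditional binomial intervals, and shares Clopper-Pearson intervals. The calculation was tested on simulated data. Tools were Python 3.11.15, numpy 2.4.6, scipy 1.17.1, scanpy 1.11.5 (phases and doublets), R 4.3.3, edgeR 4.0.16 (TMM factors) and DESeq2 1.42.0 (size factors); no count model was fitted, since there are no replicates.

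The members and the 35 gene lists were chosen with earlier results of these data known. Named genes were the 16 largest and 12 smallest ratios at 50 CPM or more with at least 10 UMIs, without mitochondrial, ribosomal or unnamed genes, then up to 3 per list by size of ratio and a fixed set of markers. Other list members in the text were named after their values were seen. Gene coordinates are those of GENCODE M21, which matched 98.6% of symbols. Alternatives changed the Cldn16 threshold, the reference, depth, scaling, floor, fold, averaging and the cells kept. Some thick ascending limb results, that list's counts among them, are not reported here.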

Additional observations from a re-analysis of the deposited data

Results flagged for a closer look

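For 3 genes the called ratio of Cldn16 high over Cldn16 zero cells went in opposite directions in the libraries, and the difference between the libraries was not tested. Cebpd, a stress-responsive transcription factor, had a log2 ratio of 0.68 with panobinostat (25.6 and 15.9 CPM) and -0.99 with vehicle (6.52 and 13.0 CPM). Xirp2, an actin-binding protein, had 0.76 with panobinostat (101 and 59.6 CPM) and -2.99 with vehicle (7.39 and 58.7 CPM). Sbsn, a secreted epithelial protein, had -0.89 with panobinostat (60.0 and 111 CPM) and 1.10 with vehicle (21.5 and 10.0 CPM). In thinned cells the ratios with panobinostat and vehicle were 0.85 and -1.84 for Cebpd, 0.49 (not called) and -1.49 for Xirp2, and -0.60 and 0.82 for Sbsn. The unthinned vehicle values rest on 30, 34 and 99 UMIs in the members.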

How the results depend on the processing

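No paired analysis was possible because each treatment has 1 library and the labels carry no replicate numbers that pair samples. Counts of called genes followed the rule that makes them: with panobinostat, against 182 higher and 142 lower, a floor of 1 CPM gave 388 and 702, a floor of 50 CPM 65 and 54, no floor 501 and 1064, a 2-fold limit 51 and 51, and a fold limit lower than 1.5 gave 487 and 461. The lowest tercile of cell totals, added after seeing the data, gave 251 lower genes. TMM and DESeq2 scaling each gave 196 higher and 120 lower. With vehicle, against 133 and 155, the floors of 1 and 50 CPM and no floor gave 291 and 477, 31 and 39, and 321 and 495; the higher and lower fold limits gave 29 and 66, and 467 and 393. Members of 5 or more UMIs gave 226 higher genes, thinning with cells chosen again 268 and 269, and leaving out S or G2/M cells 236 and 272; the cause was not tested, although these settings leave fewer cells. The share of members was 30.3% at 2 or more UMIs, 20.2% at 5 or more and 15.8% after thinning with panobinostat, and 6.97, 1.65 and 1.83% with vehicle. Of 69 named and called genes, 56 kept their call in all 15 settings that leave fold and floor as they are, 13 lost it in at least 1 (Aqp3, Acta2, Ccl20, Cdkn1c, Csf1, Dhrs3, Dusp6, Fgfr2, Fosb, Ifit2, Timp2, Tnfaip3 and Vegfa), and 0 changed sign. With 1 library per treatment, differences between treatments cannot be told apart from differences between libraries.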
